A study of Mus musculus with 12 samples.

Results

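The collagen genes of the mouse testis were examined by RNA-seq in 12 libraries from F1 mice, 3 in each of 4 groups. Genes were chosen by symbol alone, as Col followed by a number, the letter a and a number, which took 44 of the 20788 genes in the table. They fall into 11 fibrillar collagens, 6 basement membrane collagens, all of type IV, and 27 other collagens. The other class holds 9 FACIT collagens (fibril-associated collagens with interrupted triple helices), 6 beaded filament collagens of type VI, 4 transmembrane collagens, 3 short chain network collagens, 2 multiplexins, 1 anchoring fibril collagen, 1 relative of the beaded filament collagens and 1 further secreted chain. The 3NC group was made with the control vector LV3, and the group labelled lncRNA5251 knockdown (the knockdown group) with LV3 holding 3 short hairpin RNAs against lncRNA5251, a long non-coding RNA. The 5NC group was made with the control vector LV5, and the group labelled lncRNA5251 overexpression (the overexpression group) with LV5 holding the full-length lncRNA5251. All groups thus involve a lentivirus, and no group without a vector was analysed here. Per the study's methods the virus was injected into the testes of the fathers of these F1 mice, whereas the design text has the virus in the F1 testes. Strain and tissue are labelled "IRC mouse" (ICR in the study) and testis. The labels give no age, and per the methods the male offspring were raised to adulthood before their testes were collected. The number of animals behind a group is not labelled, so a p-value here reflects only the spread among libraries, and that spread may be technical. The level of lncRNA5251 itself was not analysed here.

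Collagens are proteins of the extracellular matrix in which chains with repeated glycine residues wind around each other into a triple helix. Fibrillar collagens pack side by side into the fibrils of the interstitium, type IV collagen forms the sheet-like network of basement membranes, and FACIT collagens sit on the surface of fibrils. In the testis, the seminiferous tubules stand on a basement membrane to which Sertoli cells and peritubular myoid cells contribute type IV collagen and laminin, and the wall around it holds fibrillar collagen.

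Library totals ranged from 12719699 to 15771655 estimated reads, with a median of 15273158. Germ cell transcripts were abundant, with Prm1, which encodes a protamine of sperm chromatin, between 8865 and 13108 RPKM (reads scaled by transcript length and by library size, as the authors computed it), and the Leydig cell hormone Insl3 lay between 836 and 1629 RPKM. A pair of libraries stood apart in markers of white blood cells and macrophages. Their summed level, in CPM (read counts scaled to a common library total with TMM factors), was 411 in 3NC replicate 2 and 511 in knockdown replicate 1, and 88.2 to 112 in the other 10 libraries. Markers of the epididymis, the duct next to the testis, summed to 276 CPM in 5NC replicate 2, 115 CPM in 5NC replicate 3 and 12.73 CPM in 5NC replicate 1, against 0.329 to 0.635 CPM in the overexpression libraries. In bulk tissue, fewer cells of a type and less RNA per cell cannot be told apart.

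The collagens differed widely in level. By the mean RPKM over the 12 libraries, 5 of the 44 reached 10 or more, 22 lay from 1 to 10 and 17 lay under 1. The most abundant was Col22a1 (chromosome 15, 71795795 to 72150979 in the RefSeq models of GRCm38.p6), a FACIT collagen known from tissue junctions such as that of muscle and tendon. Its level was 58.5, 46.1 and 61.0 RPKM in 3NC, 69.1, 76.5 and 68.3 RPKM in the knockdown group, 51.6, 47.4 and 45.2 RPKM in 5NC, and 68.5, 63.6 and 68.8 RPKM in the overexpression group. Every knockdown and overexpression library was thus above every 3NC and 5NC library. How many of all genes split in this way was not counted. Of all genes tested, 11.3% had groups that did not overlap between knockdown and 3NC, and 21.3% between overexpression and 5NC.

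Col16a1 (chromosome 4, 130047817 to 130099277), another FACIT collagen, came next with 41.6, 33.7 and 27.7 RPKM in 3NC, 43.2, 49.2 and 44.1 RPKM in the knockdown group, 42.03, 32.9 and 36.9 RPKM in 5NC, and 39.6, 42.04 and 37.5 RPKM in the overexpression group. Its level was below that of Col22a1 in all 12 libraries. Together the pair made up 24.8% to 57.4% of the summed RPKM of all 44 collagens, and at least 40.01% without 3NC replicate 2. When levels were recomputed as CPM per kilobase of exon, Col22a1 and Col16a1 kept the first and the second place. The FACIT collagen Col20a1 (chromosome 2, 180983323 to 181017545) had 7.49 to 13.4 RPKM, and Col9a3 (chromosome 2, 180598102 to 180622192), a chain of collagen IX of cartilage fibrils, had 4.22 to 7.44 RPKM.

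Of the fibrillar chains, Col1a2 (chromosome 6, 4505618 to 4541543), the alpha 2 chain of collagen I, had 14.6, 54.9 and 7.45 RPKM in 3NC, 15.79, 7.36 and 6.98 RPKM in the knockdown group, 15.7, 16.0 and 16.6 RPKM in 5NC, and 13.0, 11.4 and 20.1 RPKM in the overexpression group. Col3a1 (chromosome 1, 45311538 to 45349706), the chain of collagen III, had 13.1, 52.5 and 6.55 RPKM in 3NC, 13.9, 5.05 and 4.99 RPKM in the knockdown group, 14.0, 16.9 and 15.2 RPKM in 5NC, and 9.04, 8.69 and 20 RPKM in the overexpression group. Their ranges over the libraries overlapped almost entirely, and the same library, 3NC replicate 2, was the highest for both. Col1a1 (chromosome 11, 94936224 to 94953042), the alpha 1 chain of collagen I, ranged from 2.38 to 29.5 RPKM, and Col2a1 (chromosome 15, 97975602 to 98004724), the cartilage collagen, from 2.83 to 8.0 RPKM.

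The sequences before the RefSeq start sites of Col1a2 and Col3a1 are shown because these were the most abundant fibrillar chains and moved together across the libraries. They were taken from RefSeq on the plus strand of GRCm38.p6 and searched on both strands for GGGCGG (the GC box), for CCAAT (the CCAAT box) and for TATAAA (the TATA box), which do not overlap each other in the stretches shown, and the hits are in capitals. The Col1a2 stretch is chr6:4505370-4505492, which lies 126 to 248 bases before the RefSeq start. GENCODE places the start of Col1a2 further upstream, at 4504814, so that in its models the stretch is within the gene and outside its exons. The Col3a1 stretch is chr1:45311288-45311537, the 250 bases before the start in both annotations.
Col1a2: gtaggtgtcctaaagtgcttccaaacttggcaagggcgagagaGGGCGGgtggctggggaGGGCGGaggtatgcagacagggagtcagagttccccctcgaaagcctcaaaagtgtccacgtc
Col3a1: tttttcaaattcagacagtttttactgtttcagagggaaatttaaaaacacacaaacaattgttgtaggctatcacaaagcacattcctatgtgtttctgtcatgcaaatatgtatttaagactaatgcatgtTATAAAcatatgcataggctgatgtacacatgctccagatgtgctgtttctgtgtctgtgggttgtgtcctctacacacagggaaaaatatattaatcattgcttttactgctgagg
The Col1a2 stretch held GGGCGG 2 times, and 13.3% of the 32851 RefSeq promoters held it in the same window. The Col3a1 stretch held TATAAA 1 time, as did 12.4% of all promoters over the same 250 bases. Over that window, 22 of the 38 promoter entries of 35 collagens (57.9%) held GGGCGG against 32.7% of all promoters, 13 held CCAAT against 33.8%, and 5 held TATAAA against 12.4%. These letters are a description and not evidence of a bound factor. No entry was matched for Col12a1, Col14a1, Col1a1, Col22a1, Col26a1, Col2a1, Col4a3, Col5a2 and Col9a3.

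Of the type IV chains, Col4a1 (chromosome 8, 11198423 to 11312889) had a mean of 5.68 RPKM over the 12 libraries, Col4a2 (chromosome 8, 11312805 to 11449287) one of 4.47 RPKM, Col4a4 (chromosome 1, 82448419 to 82587034) one of 3.09 RPKM and Col4a3 (chromosome 1, 82586921 to 82722059) one of 2.14 RPKM. Col4a1 and Col4a2 encode the chains of the network found in nearly every basement membrane, whereas Col4a3, Col4a4 and Col4a5 encode those of a network best known from the kidney glomerulus. The genes lie in pairs that are read away from each other, and the DNA between the start sites of a pair is shown because both genes of the pair share it.
Col4a3-Col4a4: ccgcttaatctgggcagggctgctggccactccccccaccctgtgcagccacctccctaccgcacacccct
Col4a1-Col4a2: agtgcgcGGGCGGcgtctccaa
The first is chr1:82586850-82586920, the 71 bases between the GENCODE start sites of Col4a4 and Col4a3, although the RefSeq record of Col4a4 reaches to 82587034, past the start of Col4a3. It held none of the 3 motifs, which 13.3% (CCAAT), 20.7% (GGGCGG) and 4.41% (TATAAA) of RefSeq promoters held in a window of this length. The second is chr8:11312805-11312826, the 22 bases over which the first exons of Col4a1 and Col4a2 overlap in GENCODE, with the RefSeq record of Col4a1 reaching to 11312889. It held GGGCGG 1 time, as did 4.09% of promoters. Both are given on the plus strand. Col4a5 and Col4a6, the pair on chromosome X, lie 1308 bases apart. Reads over the shared stretches cannot be assigned to either gene without strand.

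**Figure D1:**
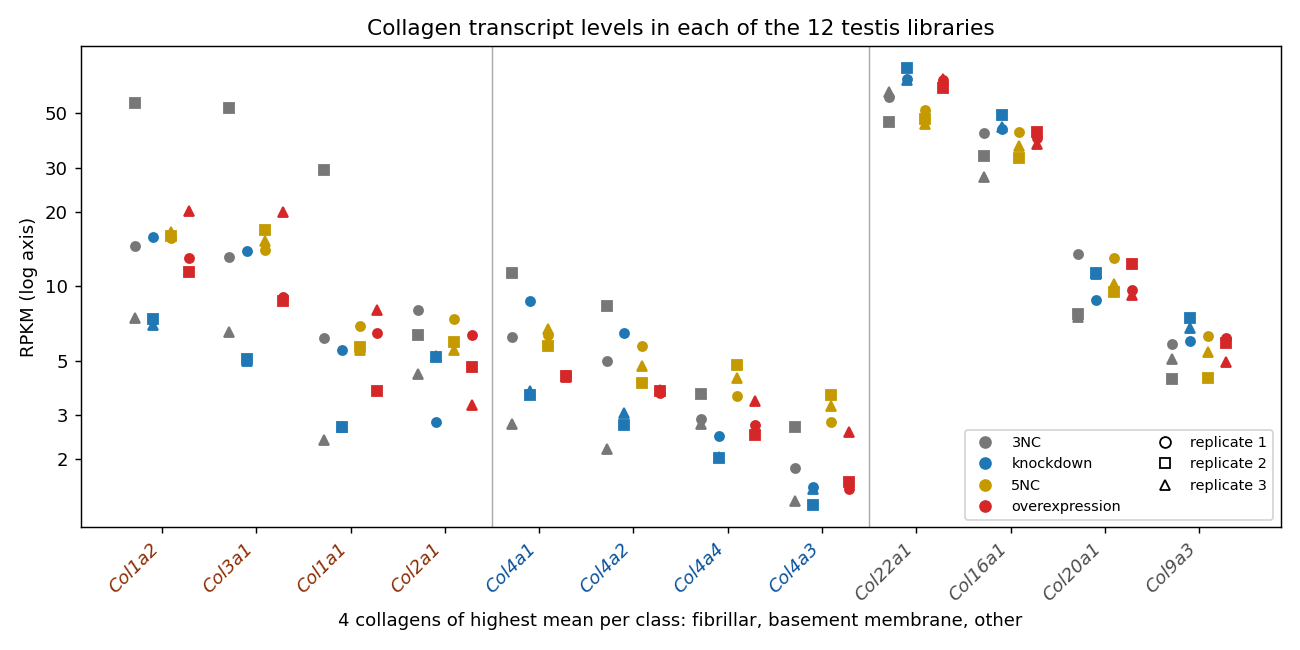
RPKM (log axis) of the 4 collagens of highest mean in each class in the 12 libraries, coloured by group, with 1 point per library and a shape per replicate number. The fibrillar chains Col1a2, Col3a1 and Col1a1 reached 54.9, 52.5 and 29.5 RPKM in 3NC replicate 2, while Col22a1 and Col16a1 stayed within 45.2 to 76.5 and 27.7 to 49.2 RPKM.

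The summed level of the fibrillar collagens was 26.1 to 155 RPKM over the 12 libraries, a 5.93-fold range, against 10.5 to 29.7 RPKM (2.84-fold) for the basement membrane class and 130 to 179 RPKM (1.38-fold) for the other class. Without 3NC replicate 2 the ranges were 26.1 to 58.8 RPKM (2.25-fold), 10.5 to 21.2 RPKM (2.03-fold) and, for the other class, the same as before. The group means of the fibrillar sum were 77.3 ± 68.4 RPKM in 3NC, 34.7 ± 10.8 in the knockdown group, 49.7 ± 1.15 in 5NC and 46.7 ± 10.9 in the overexpression group (SD, n = 3). Those of the basement membrane sum were 19.4 ± 9.72, 14.7 ± 5.70, 20.8 ± 0.360 and 14.9 ± 1.47 RPKM in the same order, and those of the other class 144 ± 14.0, 170.0 ± 8.21, 138 ± 11.8 and 162 ± 1.80 RPKM. Of all collagen RPKM, the fibrillar share was 13.2% to 48.2% with a median of 21.1% (13.2% to 25.1% without 3NC replicate 2), and the basement membrane share was 5.04% to 10.4%. The mean basement membrane share was 7.72% in 3NC, 6.61% in the knockdown group, 9.99% in 5NC and 6.64% in the overexpression group by RPKM, and 11.4%, 10.03%, 14.7% and 9.99% in the same order by CPM per kilobase of exon. The spread between the highest and the lowest library was over 4-fold for 12 of the 44 collagens, 6 of them fibrillar, and under 2-fold for 14, 10 of them in the other class.

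Much of this spread lay in 3NC replicate 2, one of the libraries with high white blood cell markers. It was the highest library for 15 of the 44 collagens, 6 fibrillar, 4 of type IV and 5 other, whereas 3NC replicate 3 was the lowest for 14. Its level over the median of the other 11 libraries, in RPKM, was 6.89-fold for Col5a2, 5.33-fold for Col1a1, 3.99-fold for Col3a1, 3.77-fold for Col1a2, 2.58-fold for Col4a1 and 2.27-fold for Col4a5. Col5a2, a chain of collagen V that joins collagen I in fibrils, and which was chosen after its values were seen, had 23.2 CPM there and 1.46 to 6.11 CPM elsewhere. In knockdown replicate 1, whose white blood cell markers were higher still, Col1a2 had 15.79 RPKM and Col3a1 13.9 RPKM, within the range of the 5NC and overexpression libraries. Col4a1 at 8.72 RPKM and Col4a2 at 6.47 RPKM in this library were above every other library except 3NC replicate 2. Markers of peritubular myoid cells summed to 288 to 359 CPM, of fibroblasts to 71.9 to 126 CPM and of endothelium to 26.7 to 49.2 CPM over all libraries. The highest endothelial sum was that of 3NC replicate 2 (49.2 CPM, with 35.7 CPM the next), and the lowest sum of germ cell markers, 13201 CPM, was also in that library. The part of cell makeup in these values was not tested.

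**Figure D2:**
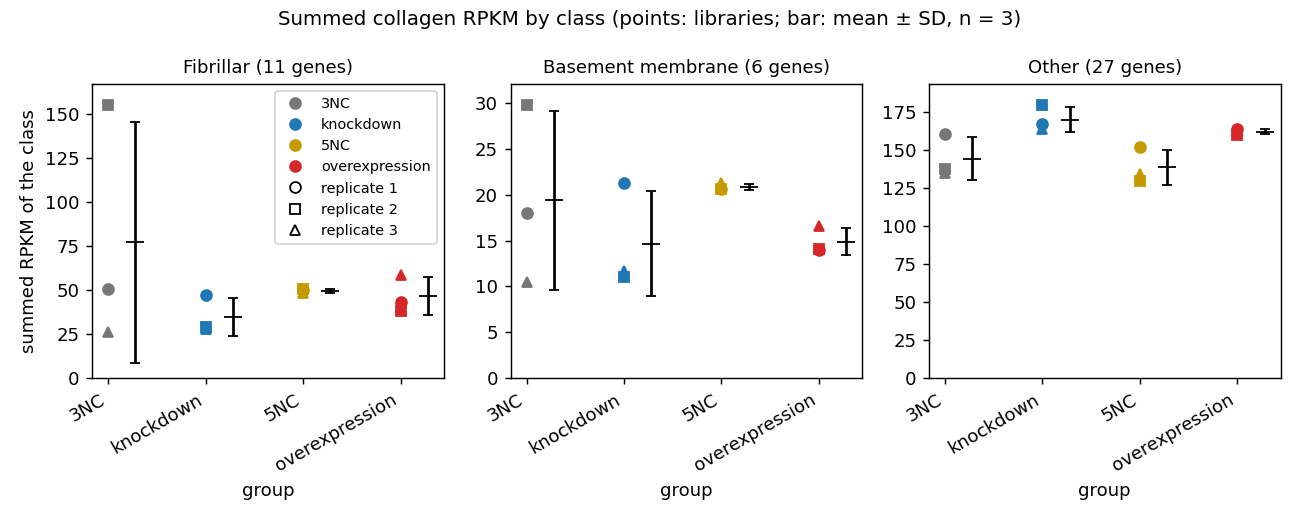
Summed RPKM of the 11 fibrillar, 6 basement membrane and 27 other collagens in each library (points), with the mean and SD of each group beside them (n = 3). The fibrillar sum reached 155 RPKM in 3NC replicate 2, and the sum of the other collagens stayed between 130 and 179 RPKM.

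Chains that assemble with each other were compared within each library. The ratio of Col1a1 to Col1a2, which form collagen I together, was 0.319 to 0.538 in RPKM with a median of 0.376, although the levels of the chains spanned 12.4-fold and 7.86-fold. Col4a1 to Col4a2 gave a ratio of 1.12 to 1.41 while their levels spanned 4.08-fold and 3.78-fold. The chains of these pairs thus moved together, and the ratio changed less than either level. Col4a3 to Col4a4 gave 0.489 to 0.788, Col6a1 to Col6a2 (chromosome 10, 76708792 to 76726044 and 76595756 to 76623630), chains of the beaded filaments of collagen VI, gave 1.33 to 2.0, and Col6a3 to Col6a1 gave 0.180 to 0.303. The exception was Col4a5 to Col4a6, at 0.971 to 3.59, where Col4a5 spanned 4.38-fold and Col4a6 1.54-fold. The values themselves rest on the length assigned to each gene. With lengths from exon models the medians were 0.812 for Col1a1 to Col1a2 and 3.17 for Col6a1 to Col6a2, against 0.376 and 1.59 in RPKM.

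**Figure D3:**
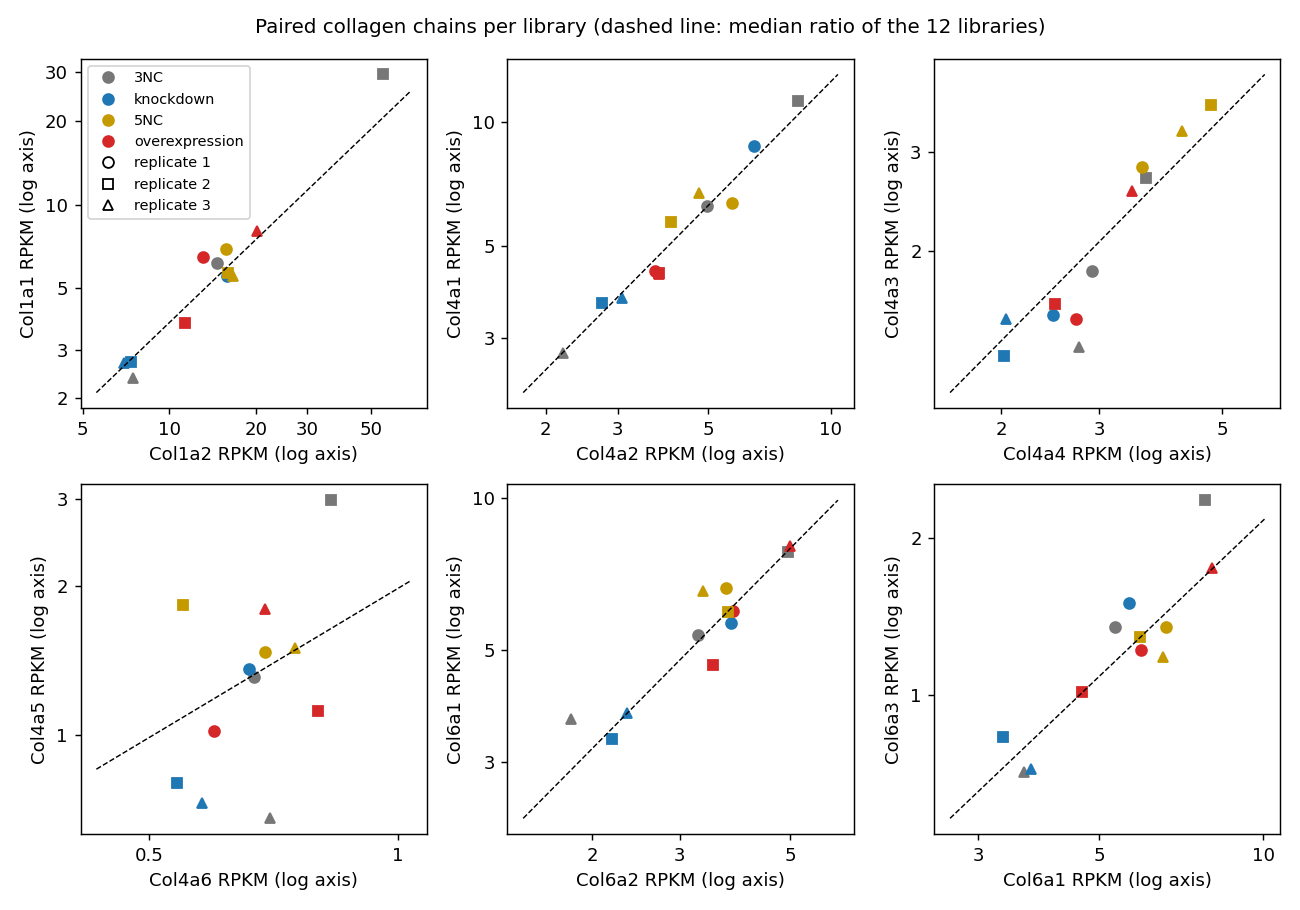
RPKM (log axes) of 6 pairs of chains of the same collagen type, plotted against each other with 1 point per library and a dashed line at the median ratio of the 12 libraries. Col1a1 with Col1a2 and Col4a1 with Col4a2 rise side by side over a 12.4-fold and a 4.08-fold range of the first chain, and Col4a5 spans 4.38-fold while Col4a6 spans 1.54-fold.

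Between the knockdown group and its vector control, no collagen passed the test across all genes. Of the 9 FACIT collagens, Col22a1, Col16a1 and Col9a3 had higher values in the knockdown group, with log2 fold changes of 0.37, 0.41 and 0.43. The class did not move as 1. The mean RPKM of Col14a1, Col12a1 and Col9a1 was lower (1.86, 1.42 and 1.29 against 2.23, 1.63 and 1.44 in 3NC). That of Col20a1 and Col19a1 was higher (10.4 and 0.513 against 9.54 and 0.43). The collagen I and III chains and Col4a4 of the basement membrane had lower values, and those of the former lay closer to 0 without 1 control library. Of the 44 collagens, 42 had enough reads to be tested. Col9a2 and Col10a1 had at most 0.10 RPKM and did not. With the knockdown group set against 3NC, 0 of 42 collagens passed an adjusted p of 0.05 in edgeR's quasi-likelihood test, where 0% of the 16388 genes tested did. DESeq2 called 0 collagens, beside 16 of all genes, and limma 0. At an unadjusted p under 0.05 stood 9 of the 42, 3 higher and 6 lower in the knockdown group, against 5.64% of all genes. The median log2 fold change (knockdown over 3NC) was -0.44 for the fibrillar, -0.36 for the basement membrane and -0.08 for the other collagens, beside -0.02 for all genes. The fibrillar median was 0.06 without 3NC replicate 2 and -0.015 without both that library and knockdown replicate 1, so its sign depends on them. With all libraries, all 6 type IV chains had a value below 0, as had 7 of 11 fibrillar and 14 of 25 other collagens.

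The lower values of Col1a1, Col1a2, Col3a1 and Col5a2 rested largely on 1 control library. Col1a1 had 36.0, 162 and 14.5 CPM in 3NC and 31.2, 16.0 and 16.0 CPM in the knockdown group, so that the groups overlapped. Its log2 fold change was -1.75 ± 0.68 (SE; edgeR adjusted p 0.764), and without 3NC replicate 2 it was -0.26 ± 0.41. The corresponding values were -1.30 ± 0.56 and -0.17 ± 0.35 for Col1a2, -1.55 ± 0.64 and -0.34 ± 0.46 for Col3a1, and -2.18 ± 0.75 and -0.50 ± 0.46 for Col5a2. Those of Col2a1 were -0.48 ± 0.30 and -0.51 ± 0.33, which differ by less than their SE, although its value was -0.23 without 3NC replicate 1 or without knockdown replicate 1. Without 3NC replicate 2, 3 of 42 collagens had an unadjusted p under 0.05, 2 higher and 1 lower, beside 6.39% of all genes in the same fit, and the median over the 42 was -0.04 in place of -0.21. Without both it and knockdown replicate 1, the count was 5, 2 higher and 3 lower, beside 4.27% of all genes, and the median was -0.16. White blood cell markers had a median log2 fold change of 1.36 in the first of these fits, with 9 of 9 above 0, and of 0.37 in the second, with 7 of 9 above 0.

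**Figure D4:**
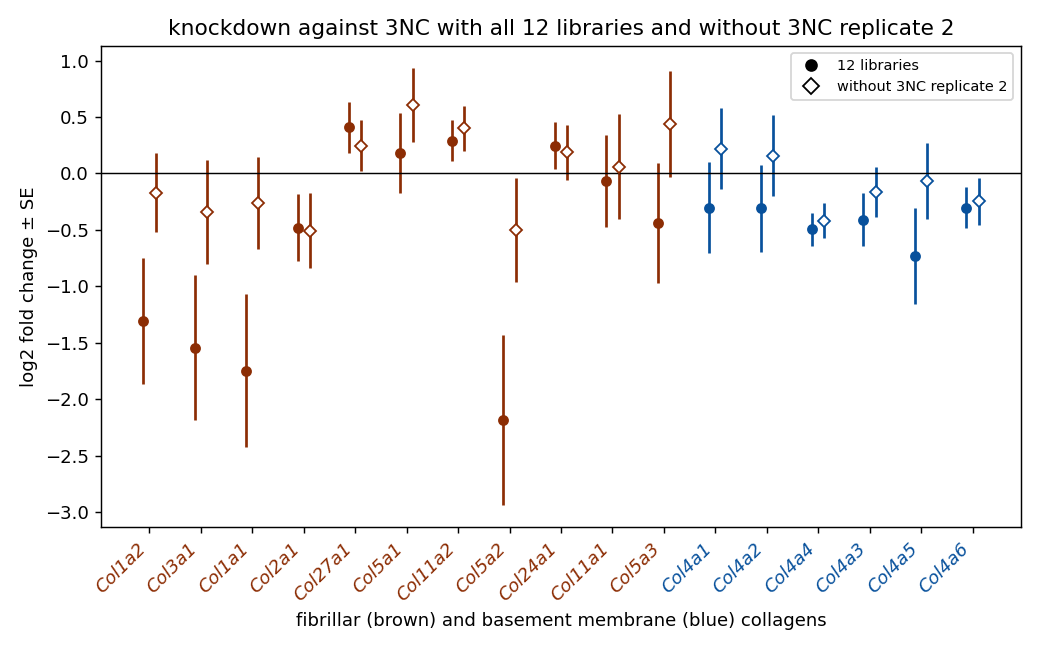
Log2 fold change (y axis, bars are SE) of the fibrillar and basement membrane collagens, knockdown over 3NC, with all 12 libraries (filled) and without 3NC replicate 2 (open). Col1a1, Col1a2 and Col3a1 move from -1.75, -1.30 and -1.55 to -0.26, -0.17 and -0.34, and Col2a1 is at -0.48 and -0.51.

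Some collagens had groups that did not overlap. These were 6 of 42, beside 11.3% of all genes, with Col22a1 and Col9a3 higher and Col4a4, Col4a6, Col14a1 and Col17a1 lower in the knockdown group. Col4a4 had 25.9, 30.2 and 25.6 CPM in 3NC and 21.2, 18.3 and 18.4 CPM in the knockdown group. The log2 fold change was -0.49 ± 0.15, and -0.42 ± 0.16 without 3NC replicate 2. Col4a1, in contrast, had 40.9, 68.9 and 18.7 CPM in 3NC and 55.3, 24.1 and 24.9 CPM in the knockdown group, and its log2 fold change was 0.22 without 3NC replicate 2, with Col4a2 at 0.16, which leaves 4 of the 6 type IV chains below 0. Without knockdown replicate 1 as well, Col4a1 and Col4a2 were at -0.28 and -0.30.

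Col22a1 had 245, 181 and 264 CPM in 3NC and 279.7, 324 and 290.0 CPM in the knockdown group, a log2 fold change of 0.37 ± 0.13, and of 0.22 ± 0.094 without 3NC replicate 2. Col16a1 had 153, 116 and 107 CPM in 3NC and 152, 183 and 164 CPM in the knockdown group, a log2 fold change of 0.41 ± 0.14. The highest 3NC library of Col16a1 lay just above the lowest knockdown library. Col9a3 had 15.9, 10.7 and 14.3 CPM in 3NC and 15.9, 20.5 and 18.8 CPM in the knockdown group, a log2 fold change of 0.43 ± 0.19, and of 0.28 ± 0.18 without that 3NC library. Col17a1, a transmembrane collagen of hemidesmosomes that was chosen after its values were seen, gave -0.67 ± 0.26. The edgeR adjusted p with all libraries was 0.764 for each of these genes. Markers of other cell types also differed in this comparison. Epididymis markers summed to 31.6 to 72.1 CPM in 3NC, with at most 3 of the 8 at 0, and to 0.332 to 16.5 CPM in the knockdown group, with up to 6 at 0. The 4 of them that were tested had a median log2 fold change of -2.69, and all 4 were lower at an unadjusted p under 0.05. Leydig cell markers summed to 1054 to 2054 CPM in 3NC and 1078 to 1422 CPM in the knockdown group, with 3 of 7 lower at an unadjusted p under 0.05 and a median of -0.66. No marker of either list passed an edgeR adjusted p of 0.05, and their part in the collagen values was not tested.

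Between the overexpression group and its vector control, Col22a1, Col12a1, Col14a1 and the collagen V chain Col5a1 had higher values, and the type IV chains Col4a1 to Col4a4 had lower values, in groups that did not overlap. None of them passed the test across all genes in edgeR. With the overexpression group set against 5NC, 0 of 42 collagens passed an adjusted p of 0.05 in edgeR, beside 0.311% of all genes. At an unadjusted p under 0.05 stood 11 collagens, 7 higher and 4 lower in the overexpression group, beside 11.9% of all genes. DESeq2 called 3 collagens, beside 323 of all genes, and limma 0, beside 82 on log2(RPKM + 0.1). Groups did not overlap for 12 of 42, 6 in each direction, beside 21.3% of all genes. The median log2 fold change (overexpression over 5NC) was 0.09 for the fibrillar, -0.40 for the basement membrane and 0.17 for the other collagens, beside -0.01 for all genes. Values were below 0 for 5 of 6 type IV chains and above 0 for 17 of 25 other collagens.

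Col22a1 had 210.5, 191 and 184 CPM in 5NC and 289, 267 and 287 CPM in the overexpression group, and the groups did not overlap. Its log2 fold change was 0.53 ± 0.13 with an edgeR adjusted p of 0.122, and an adjusted p of 0.00966 with DESeq2. Col12a1 (chromosome 9, 79598987 to 79721141) and Col14a1 (chromosome 15, 55307644 to 55520803) are FACIT collagens that bind collagen I fibrils. Col12a1 had 9.61, 11.3 and 10.7 CPM in 5NC and 18.5, 12.3 and 21.0 CPM in the overexpression group, a log2 fold change of 0.71 ± 0.18 (edgeR adjusted p 0.150, DESeq2 0.0363). Col14a1 had 7.30, 9.22 and 9.16 CPM in 5NC and 11.2, 11.5 and 15.5 CPM in the overexpression group, a log2 fold change of 0.57 ± 0.17 (edgeR adjusted p 0.182). For both, the lowest overexpression library was above the highest 5NC library.

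Col5a1 (chromosome 2, 27886381 to 28039510), a chain of collagen V that sets the width of collagen I fibrils, had 8.30, 6.47 and 6.08 CPM in 5NC and 13.1, 21.0 and 17.1 CPM in the overexpression group. The log2 fold change was 1.29 ± 0.37 with an edgeR adjusted p of 0.177 and a DESeq2 adjusted p of 0.0310. In an edgeR fit of the 6 compared libraries alone, Col22a1 and Col5a1 each had an adjusted p of 0.0374. In the edgeR fit without 3NC replicate 2, a library that enters this comparison only through the shared spread, the adjusted p of Col22a1 was 0.0246, and without 3NC replicate 3 that of Col5a1 was 0.0239. The most abundant fibrillar chains had groups that overlapped. Col1a2 had 78.5, 79.0 and 82.5 CPM in 5NC and 67.6, 58.5 and 103 CPM in the overexpression group, and Col3a1 had 74.9, 89.3 and 80.8 CPM in 5NC and 50.04, 47.8 and 109 CPM in the overexpression group. In both, the overexpression libraries lay on either side of the 5NC range.

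The type IV chains Col4a1 to Col4a4 were lower in every overexpression library than in every 5NC library. Col4a1 had 40.7, 36.2 and 42.6 CPM in 5NC and 28.8, 28.3 and 28.0 CPM in the overexpression group, a log2 fold change of -0.49 ± 0.40 (edgeR adjusted p 0.702). Col4a2 had 35.5, 24.9 and 29.4 CPM in 5NC and 23.9, 24.2 and 24.1 CPM in the overexpression group, a log2 fold change of -0.32 ± 0.39 (edgeR adjusted p 0.824). The 3 libraries of the overexpression group lay within 1 CPM of each other for both chains. Col4a4 had 31.8, 42.1 and 37.7 CPM in 5NC and 24.9, 22.4 and 31.2 CPM in the overexpression group, a log2 fold change of -0.51 ± 0.14 (edgeR adjusted p 0.177). Col4a3 had 23.6, 30.04 and 27.2 CPM in 5NC and 13.1, 13.8 and 21.9 CPM in the overexpression group, a log2 fold change of -0.73 ± 0.23 (edgeR adjusted p 0.226). Col17a1 gave -0.89 ± 0.26 (edgeR adjusted p 0.196). The epididymis markers, summed to 12.73, 276 and 115 CPM in the 5NC libraries, moved with this comparison, and 1 of the 4 tested genes of that list was lower in the overexpression group at an adjusted p of 0.05. Whether they have a part in the collagen values was not tested.

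**Figure D5:**
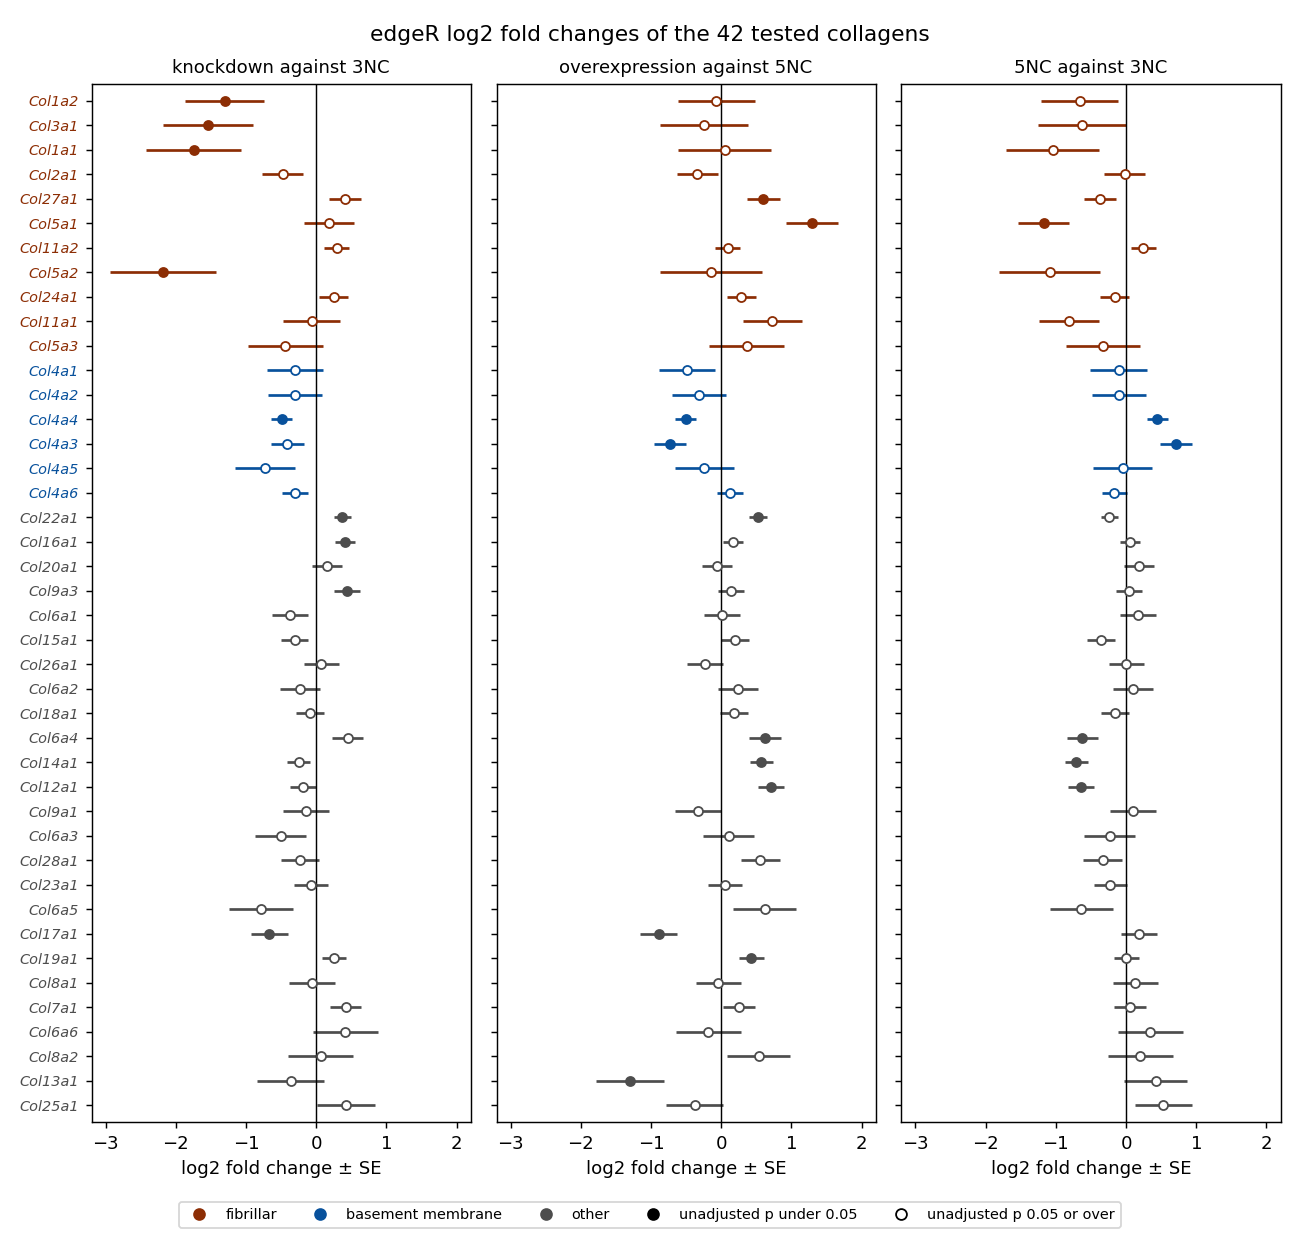
Log2 fold changes (x axis) with their SE (bars) of the 42 tested collagens in the comparisons of knockdown with 3NC, of overexpression with 5NC and of 5NC with 3NC, coloured by class, with filled points for an unadjusted p under 0.05. No collagen passed an edgeR adjusted p of 0.05, and Col22a1 was above 0 in the comparisons of knockdown and of overexpression at 0.37 and 0.53.

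The vector controls were then compared with each other, and this comparison shares its 5NC libraries with that of the overexpression group. With 5NC set against 3NC, 0 of 42 collagens passed an adjusted p of 0.05 in edgeR, beside 0.128% of all genes. At an unadjusted p under 0.05 stood 6 collagens, 2 higher and 4 lower in 5NC, beside 10.8% of all genes. DESeq2 called 1 collagen, beside 163 of all genes, and limma 0. Groups did not overlap for 5 of 42, beside 13% of all genes, with Col4a3 and Col4a4 higher and Col12a1, Col14a1 and Col6a4 (the last chosen after its values were seen) lower in 5NC.

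The values in the 3NC libraries were 15.75, 21.7 and 12.02 CPM for Col4a3, 14.2, 16.6 and 18.5 CPM for Col12a1, and 13.0, 12.9 and 16.0 CPM for Col14a1. Log2 fold changes (5NC over 3NC) were 0.71 ± 0.23 for Col4a3 (edgeR adjusted p 0.327), 0.45 ± 0.14 for Col4a4 (0.313), -0.64 ± 0.18 for Col12a1 (0.272), -0.71 ± 0.16 for Col14a1 (0.170; DESeq2 0.0265) and -1.17 ± 0.37 for Col5a1 (0.305). With each library left out, Col5a1 was at -1.53 to -0.75 in this comparison. Without 3NC replicate 3 it was past the threshold at an edgeR adjusted p of 0.0312. Col5a1 had 16.9, 23.7 and 6.48 CPM in 3NC, so that 3NC replicate 3 lay within the 5NC range. Each of these genes had the opposite sign in the comparison of the overexpression group with 5NC, and both comparisons rest on the same 3 libraries of 5NC. The class medians were -0.63 for the fibrillar, -0.07 for the basement membrane and 0.05 for the other collagens, beside -0.02 for all genes. Without 3NC replicate 2 the first and the second became 0.36 and 0.47. White blood cell markers had a median of -0.85 in this comparison, with 8 of 9 below 0 and 2 of them lower at an unadjusted p under 0.05, and a median of 0.03 without 3NC replicate 2. The 4 epididymis markers tested were all above 0, with a median of 1.33. The part of these cells in the collagen values was not tested.

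The log2 fold changes of the knockdown and overexpression groups, each over its own control and called effects here, were compared as a difference. They compare labelled groups, and the level of lncRNA5251 in these testes was not analysed. In edgeR 0 of 42 collagens passed an adjusted p of 0.05, beside 0.0244% of all genes, and 3 had an unadjusted p under 0.05, beside 4.63% of all genes. DESeq2 called 0 collagens, beside 41 of all genes, and limma 0. The class medians were -0.80 for the fibrillar (10 of 11 below 0), 0.01 for the basement membrane and -0.15 for the other collagens, beside -0.02 for all genes, and without 3NC replicate 2 the first and the second became -0.17 and 0.33. Epididymis markers had a median of 4.06 in this difference, with 4 of 4 above 0 and 2 at an unadjusted p under 0.05. Leydig cell markers had a median of -0.67, with 5 of 7 below 0 and 2 at an unadjusted p under 0.05. Their part in the collagen values was not tested. The 3 collagens at an unadjusted p under 0.05 were Col14a1 at -0.82 ± 0.23 (edgeR adjusted p 0.774), Col12a1 at -0.90 ± 0.26 (0.785) and Col6a5, a chain of collagen VI, at -1.41 ± 0.64 (1.0). With each library left out Col6a5 was at -1.73 to -0.87. Col6a5 had 9.66, 18.0 and 5.61 CPM in 3NC, 7.52, 4.05 and 7.70 CPM in the knockdown group, 6.49, 7.32 and 7.59 CPM in 5NC, and 10.5, 5.39 and 17.1 CPM in the overexpression group. Its overexpression libraries lay on either side of the 5NC range. Col22a1 was above 0 in both comparisons, and the difference of its effects was -0.15 ± 0.18 (edgeR adjusted p 1.0), which is smaller than its SE.

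Genes that make, hold or break down collagen were examined by the same fit. In each of the 4 comparisons, 0 of the tested genes passed an edgeR adjusted p of 0.05 in the lists for collagen processing and cross-linking (31 of 33 tested), laminins and basement membrane proteins (18 of 18), collagen receptors (9 of 10), collagen-degrading enzymes with their inhibitors, called degrading enzymes here (9 of 12), and small leucine-rich proteoglycans (9 of 10). At an unadjusted p under 0.05, the knockdown comparison had 4 processing genes (1 higher), 1 basement membrane protein, 0 receptors, 0 degrading enzymes and 3 proteoglycans (1 higher), beside 5.64% of all genes. The corresponding counts were 2 (1 higher), 1 lower, 1 higher, 2 (1 higher) and 1 lower for overexpression against 5NC, beside 11.9% of all genes, and 2 (1 higher), 3 higher, 1 lower, 2 lower and 1 lower for 5NC against 3NC, beside 10.8%. For the difference of the effects they were 0, 2 (1 above 0), 1 below 0, 1 above 0 and 1 below 0, beside 4.63%. Among the degrading enzymes so counted, Ctsk was lower and the inhibitor Timp4 higher for overexpression against 5NC. For 5NC against 3NC they were Ctss and the inhibitor Timp1, both lower. Median log2 fold changes in the knockdown comparison were -0.21 for processing, -0.07 for basement membrane proteins, -0.10 for receptors, -0.06 for degrading enzymes and -0.40 for proteoglycans. Without 3NC replicate 2 they were 0.01, 0.04, 0.20, 0.09 and -0.44, and without both that library and knockdown replicate 1 they were -0.06, -0.04, 0.12, 0.04 and -0.43. The summed level of the proteoglycans was 166, 254 and 165 CPM in 3NC and 213, 135 and 149 CPM in the knockdown group. In this comparison the gene of smallest p within the processing list was P3h4, which takes part in lysine modification of collagen (-0.50 ± 0.18). Within the basement membrane proteins it was Nid1, which links laminin to type IV collagen (-0.40 ± 0.13, and -0.21 ± 0.098 without 3NC replicate 2). Within the receptors it was the subunit Itga11 (0.49 ± 0.24). Within the degrading enzymes it was the gelatinase Mmp2 (-1.24 ± 0.60, and -0.34 ± 0.52 without 3NC replicate 2), and within the proteoglycans Prelp (0.56 ± 0.20).

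In the comparison of the overexpression group with 5NC the medians were -0.12, -0.16, 0.05, -0.09 and 0.07 in the same order. Lama2, the alpha 2 chain of laminin, had a log2 fold change of -0.31 ± 0.08 (edgeR adjusted p 0.144, DESeq2 0.0317) there and of 0.45 ± 0.08 (edgeR adjusted p 0.0625, DESeq2 0.000279) in that of 5NC with 3NC. As for Col4a3 and Col4a4, both values rest on the 5NC libraries. Itga1, a subunit of a collagen receptor, gave 0.62 ± 0.21 and -0.71 ± 0.21 in these comparisons. With each library left out its values were 0.38 to 0.82 and -0.91 to -0.54. The cathepsin Ctsk, which degrades collagen in bone, gave -1.81 ± 0.60 in the first, with -1.26 without overexpression replicate 2 and -2.87 without overexpression replicate 3. Mia3, which helps to export collagen from the endoplasmic reticulum, gave 0.20 ± 0.08 in the first, and Adamts3, which trims procollagen, gave -1.31 ± 0.44 in the second. The smallest p among proteoglycans belonged to Epyc in the first (-0.47 ± 0.20, and -0.67 to -0.30 with each library left out) and to Fmod, which binds collagen I fibrils, in the second (-0.83 ± 0.31). That among degrading enzymes and their inhibitors belonged to Timp1, an inhibitor, in the second (-2.35 ± 1.04). Without 3NC replicate 2 the value of Timp1 was 0.21 ± 0.73. The degrading enzymes and inhibitors summed to 534 CPM in that library, which had high white blood cell markers, against 266 and 210 CPM in the other 3NC libraries and 257 to 280 CPM in 5NC. The medians of 5NC against 3NC were -0.05, 0.14, -0.14, -0.59 and -0.21 in the order above, and 0.18, 0.36, 0.30, 0.20 and 0.11 without 3NC replicate 2, with the sign turned for all but the second. In the difference of the knockdown and overexpression effects the gene of smallest p within each list, in the order above, was Adamts3 (-1.21 ± 0.60), Lama2 (0.26 ± 0.11), Itga1 (-0.99 ± 0.30), Ctsk (1.88 ± 0.81, and 1.33 to 2.94 with each library left out) and Fmod (-1.01 ± 0.44, and -1.30 to -0.51 with each library left out), with edgeR adjusted p-values of 0.881 for Itga1 and of 1.0 for the others.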

How the data were processed

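RNA-seq of testis was carried out by the authors, who enriched messenger RNA with oligo(dT), aligned reads with SOAPaligner and called genes with DEGseq. The build named in the processing notes is mm10. The authors deposited estimated counts per gene, not scaled, with a fraction in some library for 3588 of 20788 genes (17.3%), and RPKM values, named so in the methods; the plan of this work called them FPKM. A further 18 per-sample columns of other groups and 14 columns of averages were not used. Groups were taken from the sample titles.

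Counts were rounded. After filterByExpr, 16388 genes entered 1 edgeR 4.0.16 fit (R 4.3.3; TMM, quasi-likelihood, 12 libraries, no covariate), with Benjamini-Hochberg adjustment over all of them where 0.05 was the threshold. Variation between libraries was 22.9% (biological coefficient). The 4 contrasts and the alternatives (RLE size factors, no scaling factor, no filter, DESeq2 1.42.0, limma 3.58.1 on log2(RPKM + 0.1) or log2(RPKM + 1) for genes of at least 0.5 RPKM in 3 libraries, a replicate block, the compared libraries alone, each library left out) are given with their effect below. Genes were named by a rule: the 4 of highest mean RPKM per class, the 3 of smallest p per contrast, any collagen past the threshold, the chains of the ratios, called genes and the gene of smallest p of each matrix list, and 2 genes per marker list at most. The members, lists and rule were chosen with earlier results of these data known. The search for groups that do not overlap, the motifs and the printed sequences were chosen after the values were seen. The scripts were tested on simulated data after the real data had first been fitted. Sequences came from RefSeq (GRCm38.p6). The stretches of Col1a2 and Col3a1 were placed by RefSeq start sites and those of the type IV pairs by GENCODE. All 44 collagen IDs matched RefSeq.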

Additional observations from a re-analysis of the deposited data

How the results depend on the processing

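No collagen was called in the knockdown comparison or the difference under any alternative run. For overexpression against 5NC the collagens called were 3 with DESeq2, 2 in the 6 compared libraries alone, 1 without both 3NC replicate 2 and knockdown replicate 1, and 0 to 1 with each library left out. For 5NC against 3NC they were 1 with DESeq2 and 0 to 1 with each library left out. All genes called were, for the knockdown group, 16 with DESeq2 and 0 to 12 with each library left out. For overexpression they were 323 with DESeq2, 82 with limma on log2(RPKM + 0.1), 21 with the replicate block, 107 in the 6 libraries, 159 without both and 9 to 87 with each library left out. For 5NC against 3NC they were 33 with no scaling factor, 163 with DESeq2, 35 with limma and no filter, 5 with the replicate block, 7 in the 6 libraries, 45 without both and 3 to 35 with each library left out. For the difference they were 41 with DESeq2, 9 (limma, no filter), 2 (replicate block) and 2 to 10 with each library left out.

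Deviations of each library from its group mean, in log2 CPM, were correlated over genes. For same-numbered libraries the values were -0.52, -0.64 and 0.39 for 3NC with the knockdown group. They were 0.19, -0.12 and 0.15 for 5NC with the overexpression group. The highest, 0.77, joined 3NC replicate 2 and knockdown replicate 1, both with high white blood cell markers. With 3 libraries per group the deviations depend on each other, so they cannot settle whether the replicate numbers pair the samples. The block changed no collagen call.

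With each library left out, the median log2 fold change was -0.64 to 0.06 for fibrillar and -0.67 to -0.12 for basement membrane collagens in the knockdown comparison, -1.05 to 0.36 (fibrillar) and -0.27 to 0.47 (basement membrane) for 5NC against 3NC, and -1.21 to -0.17 and -0.38 to 0.33 for the difference. Without both libraries named above, 5NC against 3NC gave 0.36 and 0.47. The fibrillar share in 5NC was 21.7% by CPM per kilobase of exon, against 23.8% by RPKM. On the same scale the basement membrane share was 9.99% to 14.7% over the 4 group means, against 6.61% to 9.99% by RPKM.

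In the knockdown comparison Col4a1 was at -0.81 to 0.22 and Col4a2 at -0.76 to 0.16 with each library left out, both above 0 without 3NC replicate 2 only. The sign of 2 log2 fold changes turned for overexpression against 5NC. Col1a1 had -0.052 with limma on log2(RPKM + 0.1), with and without the filter, -0.037 on log2(RPKM + 1) and -0.18 to 0.31 with each library left out, and Col1a2 had -0.33 to 0.094. For 5NC against 3NC the ranges with each library left out crossed 0 for Col1a1 (-1.51 to 0.44), Col1a2 (-1.07 to 0.48) and Col3a1 (-1.05 to 0.58), with the highest value without 3NC replicate 2, which was the same without both libraries, for Col16a1 (-0.056 to 0.23), and for Timp1 (-2.86 to 0.21), which was also at 0.21 without both libraries. Of 938 alternative values of the collagen log2 fold changes printed above, and of those of Col1a1, Col1a2, Col3a1, Col16a1 and Col22a1 in every comparison, 18 turned the sign, 10 passed the threshold that the reported value missed and 910 did neither. Of 431 for the genes of the matrix lists, these counts were 2, 2 and 427; the alternatives for the matrix and marker lists were chosen after seeing the data. The cause was not tested. Col13a1 had 4 to 18 reads per library, which limits what its values can show.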
